A study of Mus musculus with 2 samples.

Results

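Mir101a and Mir101b are the mouse genes for the microRNA miR-101. They are 2 of the 2202 miRNA genes counted in 2 libraries whose tissue label reads layer of hippocampus. They were found by matching the gene identifiers of the count tables to the GENCODE M21 symbols, and both were present. Both libraries came from male B6CASTF1/J mice aged 2 months, the first-generation hybrids of C57BL/6J and CAST/EiJ, and form a single group of 2 replicates with no control or comparison group. The labels give each replicate its own biosample, and the sample descriptions carry the number 5 for replicate 1 and 6 for replicate 2 after the sex, but the same donor is listed for both. Whether the replicates are separate animals is therefore not settled, and the spread between them may or may not cover differences between animals. The pair was selected on the measured CPM of Mir101a, which had already been seen to differ between these replicates, so the levels of the pair and their difference are described here without a test.

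A microRNA is cut from a hairpin precursor, first by Drosha in the nucleus and then by Dicer in the cytoplasm. Either arm of the hairpin can be loaded into an Argonaute protein, where the seed, bases 2 to 8 counted from the 5′ end, leads the pairing with target mRNAs and lowers their translation and stability. miR-101 is best known for repressing the histone methyltransferase Ezh2 in human cells, and in the developing mouse hippocampus it has been reported to limit network excitability through targets that include the chloride importer gene Slc12a2.

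The mature 3′ arms are shown because their starts, as RefSeq annotates them on GRCm38.p6, set the seed of each gene's product. Capitals mark bases 2 to 8. miR-144-3p is added as the only other listed sequence whose core of 6 seed bases lies at the same place as in miR-101a-3p.

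miR-101a-3p: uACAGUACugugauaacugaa
miR-101b-3p: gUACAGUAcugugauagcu
miR-101c: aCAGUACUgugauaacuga
miR-144-3p: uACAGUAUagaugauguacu

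The 3 annotated miR-101 sequences start 1 base apart, so each has a different seed by this definition although their cores read alike. Base 1 of miR-101a-3p stands over base 2 of miR-101b-3p, and 17 of the 18 overlapping bases are identical. The single difference is A16G, counted from the 5′ end of miR-101a-3p. miR-101c, annotated at Mir101c on chromosome 9, equals bases 2 to 20 of miR-101a-3p with no difference over its 19 bases. miR-144-3p has C8U at the last seed base and is identical to miR-101a-3p at 8 of 20 overlapping bases. Of the 1738 mature entries in the RefSeq table, 7 hold the core ACAGUA starting at base 1, 2 or 3, and the remaining ones are the miR-199 3′ arms of Mir199a-1, Mir199a-2 and Mir199b.

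The 5′ arms differ more. They are shown with the differing bases in capitals, since the counts add the reads of both arms of a hairpin and the arm that supplied them cannot be told.

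miR-101a-5p: ucAguuaucaCAguGcUgaugc
miR-101b-5p: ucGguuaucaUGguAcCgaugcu

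These arms are identical at 17 of 22 overlapping bases, with A3G, C11U, A12G, G15A and U17C from miR-101a-5p to miR-101b-5p, counted from the 5′ end of miR-101a-5p. In the hairpins below, capitals mark the mature arms, to show where each arm sits in its precursor.

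Mir101a hairpin: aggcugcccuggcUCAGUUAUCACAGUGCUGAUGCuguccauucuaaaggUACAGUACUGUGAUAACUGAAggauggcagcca
Mir101b hairpin: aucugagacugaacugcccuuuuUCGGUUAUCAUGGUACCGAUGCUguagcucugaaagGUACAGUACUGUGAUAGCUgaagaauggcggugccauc

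Mir101a (ENSMUSG00000065451.1) lies on the minus strand of chr4:101346945-101347027 of mm10, overlapping an exon of the long noncoding RNA gene E130102H24Rik on the same strand. Mir101b (ENSMUSG00000065556.1) lies on the plus strand of chr19:29135279-29135375, in an intron of Rcl1, a protein-coding gene on the same strand whose yeast counterpart acts in ribosomal RNA processing. Neither gene has a listed miRNA gene near it. The nearest start sites were 1689 kb and 2125 kb away from Mir101a, and 1126 kb and 4193 kb away from Mir101b, and all 4 of these neighbours had 0 counts in both libraries. In the minimum free energy structure from RNAfold, the Mir101a hairpin of 83 nt folded at -47 kcal/mol and the Mir101b hairpin of 97 nt at -39.6 kcal/mol. The Mir101a fold paired 20 of the 21 bases of the 3′ arm and 21 of the 22 bases of the 5′ arm. The Mir101b fold paired 18 of 19 and 17 of 23. Per nucleotide this was -0.57 kcal/mol for Mir101a and -0.41 kcal/mol for Mir101b, against a median of -0.43 kcal/mol over the 401 detected genes, of which 30 had a lower value than Mir101a and 266 a lower value than Mir101b. The Mir101c transcript of 75 nt folded at -16.1 kcal/mol, with 11 of the 19 bases of miR-101c paired.

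Replicate 1 held 2322520 counts on miRNA genes of 6441333 reads, and replicate 2 held 3414105 of 10003856. Reads that mapped to several places were in no gene's count and made up 42.6% of replicate 1 and 46.0% of replicate 2. Levels are given as CPM, the same-strand count of a gene per 1000000 counts on all miRNA genes of its library, and were not divided by hairpin length. A level of at least 2 CPM in each library counted as detection, which 401 of the 2202 genes (18.2%) met, both Mir101 genes among them. Genes known from neurons were detected in 11 of 13 cases. Mir124a-1 reached only 6 and 11 counts, but the Mir124a gene has several copies. Reads of a mature sequence that copies share would map to several places, so these counts set no level for miR-124. Striated muscle genes summed to 55.1 and 24.0 CPM, with 1 of 6 detected. The Mir1a and Mir133 genes had 0 counts, which set no level for the Mir1a and Mir133a copies for the same reason. The liver gene Mir122 was at 52.1 and 40.7 CPM.

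Mir101b was the more abundant of the pair in both libraries, and both genes were lower in replicate 1 than in replicate 2. Mir101a had 253 counts, or 109 CPM (Wilson 95% interval 96.3 to 123), in replicate 1, and 1729 counts, or 506 CPM (483 to 531), in replicate 2. Mir101b had 1015 counts, or 437 CPM (411 to 465), in replicate 1, and 3913 counts, or 1146 CPM (1111 to 1183), in replicate 2. The intervals cover counting error only, and they treat each read as independent. Reads amplified by PCR are not independent molecules, so the intervals may be too narrow even for that error. For neither gene did the intervals of the libraries overlap. The mean level was 308 ± 281 CPM for Mir101a and 792 ± 501 CPM for Mir101b (SD, n = 2 each), so the SD of Mir101a was close to its mean. By mean level Mir101a ranked 144 and Mir101b 102 of the 401 detected genes, whose median mean level was 87.0 CPM. The rank of Mir101a was 187 in replicate 1 and 127 in replicate 2, and that of Mir101b was 134 and 85. The opposite-strand column held 0 counts for both genes in both libraries, and the unstranded counts equalled the same-strand ones.

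**Figure D1:**
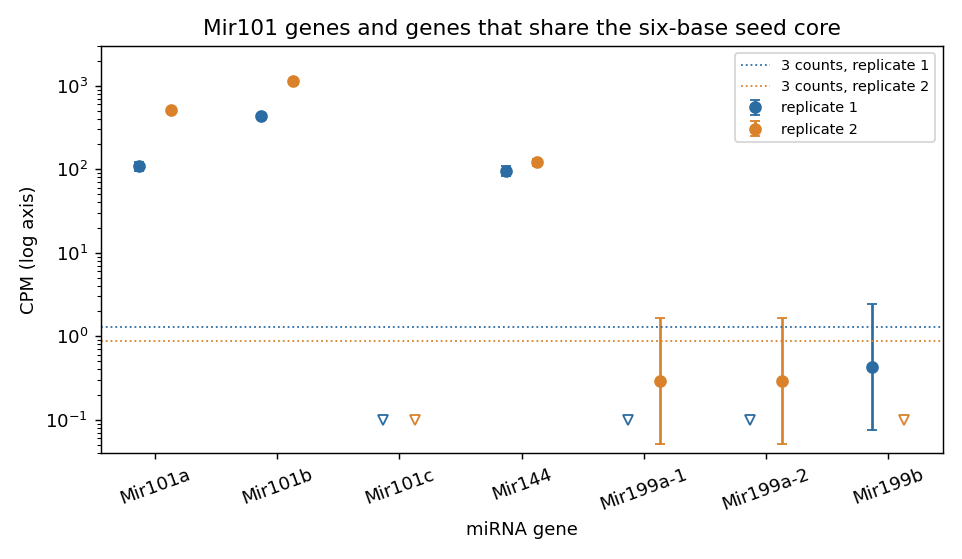
CPM on a log axis of the Mir101 genes and of the genes that share the core of 6 seed bases, in replicate 1 (blue, left) and replicate 2 (orange, right), with Wilson 95% intervals as bars, 0 counts as open triangles at 0.1 CPM, and dotted lines at the level of 3 counts. Mir101a at 109 and 506 CPM and Mir101b at 437 and 1146 CPM lie above Mir144, and Mir101c and the Mir199 genes lie below the dotted lines.

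The counts placed on the seed relatives ranged from 0 to 413, and for most of these genes they set no level. Mir101c had 0 counts in both libraries and on both strands. A read of the whole miR-101c matches Mir101a as well and would not be placed on either gene, so 0 counts put no upper limit on miR-101c. Mir144, an erythroid gene like Mir451a, had 220 counts (94.7 CPM) in replicate 1 and 413 counts (121 CPM) in replicate 2. Mir144 lay below both Mir101 genes in each library. In replicate 1 its interval (83.0 to 108 CPM) overlapped that of Mir101a (96.3 to 123 CPM). The 3 Mir199 genes, known from vascular and connective tissue cells, had at most 1 count each in either library. Their 3′ arms have the same sequence at 3 loci, so reads of these arms would map to several places and their level is not known either. Mir101a was 4.65-fold and Mir101b 2.62-fold lower in replicate 1 than in replicate 2, against 1.28-fold for Mir144.

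The order of neighbours in level did not hold in each library. The genes ranked next above Mir101a by mean were Mir125b-2, Mir666 and Mir467e, and those next below were Mirlet7f-1, Mir700 and Mir30c-2. All 6 had means between 292 and 375 CPM, inside 1 SD of Mir101a, and none is told apart from it by the spread. In replicate 1 all of them lay above Mir101a, from 233 to 345 CPM, and in replicate 2 all lay below it, from 247 to 419 CPM. Genes chosen for a near mean but with a narrower difference between the replicates fall this way by the choice. The same holds around Mir101b. Around Mir101b stood Mir7689, Mir153, Mir125b-1, Gm23450, Mir150 and Mir1249, with means between 751 and 807 CPM, inside 1 SD of Mir101b. Mir153, a brain-enriched miRNA gene, was the only one of these 6 below Mir101b in replicate 1, at 410 CPM, and the only one above it in replicate 2, at 1202 CPM. The other 5 lay between 569 and 850 CPM in replicate 1 and between 765 and 966 CPM in replicate 2. Of the neighbours of either gene, Mir125b-1, Mir125b-2, Mirlet7f-1 and Mir30c-2 are copies. Reads of a mature sequence that copies share are in no gene's count, so these counts set no level for the miRNAs concerned.

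The share of the pair that came from Mir101a also differed between the libraries. Together the genes had 1268 counts (546 CPM) in replicate 1 and 5642 counts (1653 CPM) in replicate 2, a mean of 1099 ± 782 CPM (SD, n = 2). Mir101a supplied 20.0% of them in replicate 1 (Wilson 95% interval 17.8 to 22.2) and 30.6% in replicate 2 (29.5 to 31.9). Mir101b thus exceeded Mir101a 4.01-fold in replicate 1 and 2.26-fold in replicate 2, or 3.43-fold and 1.94-fold per nucleotide of hairpin. The log2 ratio of Mir101a over Mir101b was -2.004 and -1.18, with a mean of -1.59 ± 0.58 (SD, n = 2). The direction was the same in both libraries, and the size was not. This ratio is formed within a library, so no scaling between libraries enters it.

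The size of this ratio lay near the median of letter pairs, here genes whose symbols share a number and end in a and b, with no copy number and both detected. There were 16 such pairs, and the median absolute log2 ratio, averaged over the libraries, was 1.72. In 8 pairs the a gene was higher in both libraries, in 5 the b gene was, Mir101 among them, and in 3 the order changed. The log2 ratio of the Mir101 pair differed by -0.83 between replicate 1 and replicate 2, the fifth largest shift, where the median absolute shift was 0.49. The widest shifts were those of Mir34a and Mir34b, at 2.74, of Mir190a and Mir190b, at -2.04, and of Mir200a and Mir200b, at 1.87. Each of these pairs has a member under 20 CPM in replicate 1. In 9 of the 16 pairs, Mir101 included, both genes differed between the replicates in the same direction.

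**Figure D2:**
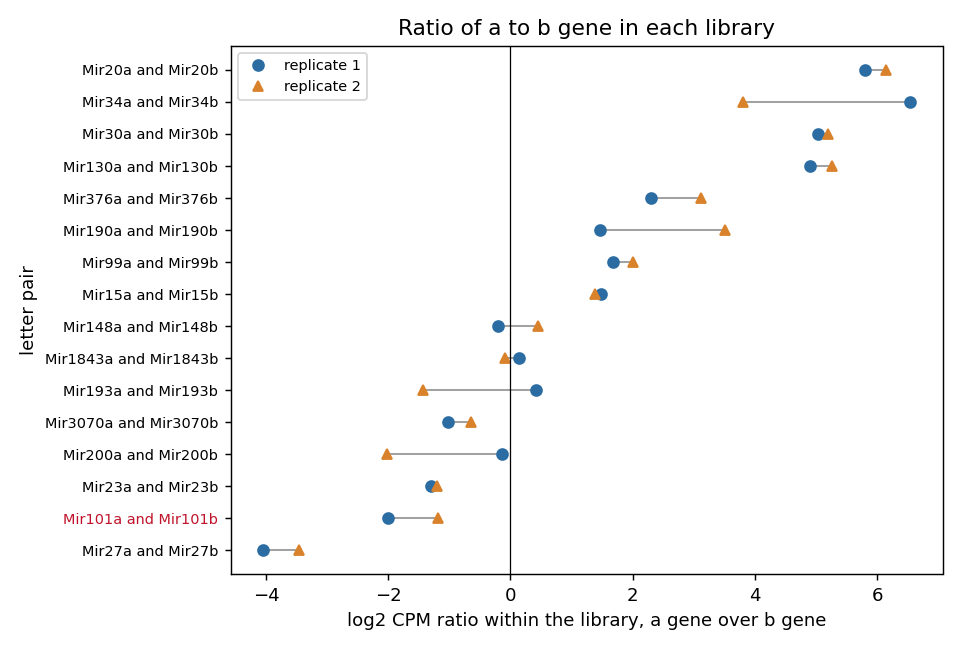
Log2 CPM ratio of the a gene over the b gene in replicate 1 (blue circles) and replicate 2 (orange triangles) for the 16 letter pairs, joined by a grey line and ordered by their mean. The Mir101 pair (red label) is at -2.004 and -1.18, and only the Mir27 pair has a lower mean.

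The difference between the replicates, for which the pair was taken up, was among the widest in the data. The log2 ratio of replicate 1 over replicate 2 was -2.22 for Mir101a, a 4.65-fold lower level in replicate 1 (exact 95% counting interval 4.07 to 5.33). It was -1.39 for Mir101b, a 2.62-fold lower level (2.45 to 2.81). Both genes lay past 2-fold, as did 43 of the 401 detected genes (10.7%), 25 of them (6.23%) lower in replicate 1 like the Mir101 genes and 18 (4.49%) higher. The median log2 ratio of all detected genes was -0.06, and the median absolute difference was 1.26-fold. Counted from the gene lowest in replicate 1, Mir101a was number 4 and Mir101b number 17 of the 401. Among the 197 genes whose mean was at least 100 CPM they were numbers 2 and 8, where 11 genes (5.58%) were 2-fold or more lower in replicate 1 and 6 (3.05%) higher. These ranks describe 2 libraries and were part of what chose the pair.

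Marker lists of several cell types also differed between the libraries. For neuron genes the summed level was 33310 CPM in replicate 1, against 47982 CPM in replicate 2, and 3 of their 11 detected members were 2-fold or more lower in replicate 1, beside 6.23% of all detected genes. Mir128-1 made up most of that gap, the median log2 ratio of the detected members was -0.20, and Mir138-1, Mir138-2, Mir9-3, Mir132 and Mir9-2 were higher in replicate 1, with log2 ratios between 0.04 and 0.87. Leukocyte and microglia genes summed to 676 and 1100 CPM, with 3 of 4 detected. Most of that gap came from Mir150, at 569 and 966 CPM, while Mir155 was higher in replicate 1, with a log2 ratio of 0.37. Choroid plexus genes summed to 593 and 739 CPM, with 1 of 2 detected. Nearly all of this was Mir204, while Mir211 had 7 counts in replicate 1 and 3 in replicate 2. The sum of the oligodendrocyte genes, all 3 detected, was 4367 CPM in replicate 1 against 2683 CPM in replicate 2, mostly through Mir219a-2, while Mir338 had a log2 ratio of 0.08. The sum of the erythrocyte genes, all 3 detected, was 1922 CPM in replicate 1 against 1149 CPM in replicate 2, through Mir451a (log2 ratio 0.84), while Mir144 (-0.35) and Mir486 (-0.05) were not higher in replicate 1. The endothelial gene Mir126a was at 14889 and 12474 CPM. These sums moved in both directions while both Mir101 genes were lower in replicate 1, and the part of cell composition in the difference of the pair was not tested. In tissue RNA, fewer cells of a type and less RNA per cell cannot be told apart. The sums also leave out reads of any mature sequence shared by copies, such as the Mir9, Mir124a, Mir128, Mir138 and Mir219a genes.

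**Figure D3:**
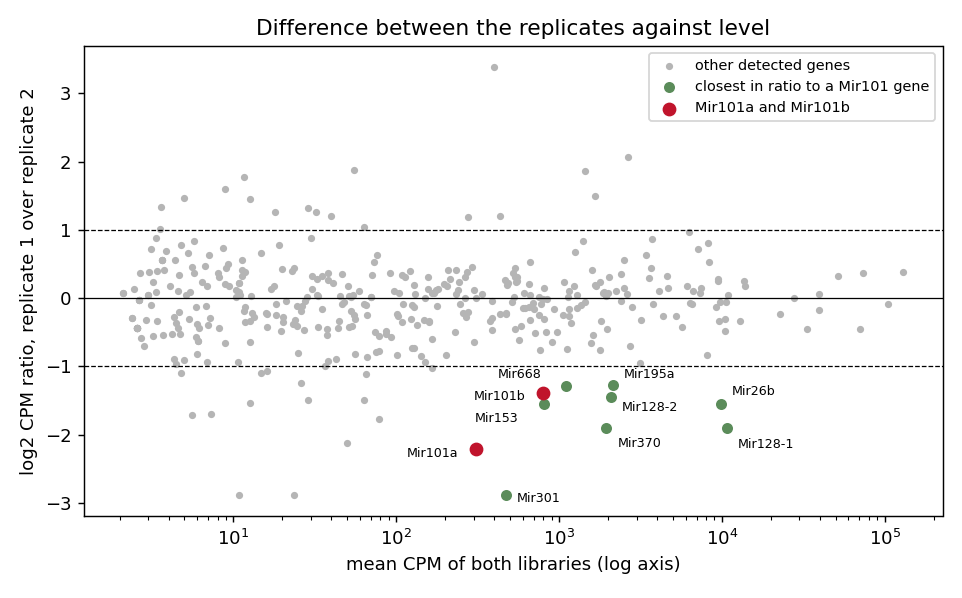
Log2 CPM ratio of replicate 1 over replicate 2 against the mean CPM (log axis) of each detected gene, with Mir101a and Mir101b in red, the genes closest to either in ratio in green, and dashed lines at 2-fold. Mir101a (-2.22) and Mir101b (-1.39) lie under the lower dashed line, with Mir26a-1, Mir1291 and Mir301 below both, each at -2.88.

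The genes most like the Mir101 pair in this ratio, among those averaging at least 100 CPM, were named by the absolute difference of log2 ratios over the 2 libraries. For Mir101a these were Mir128-1 (log2 ratio -1.90), Mir370 (-1.90), Mir301 (-2.88), Mir153 (-1.55) and Mir26b (-1.55). None lay within 0.3 of it, the closest being 0.31 away. For Mir101b they were Mir128-2 (-1.45), Mir668 (-1.28), Mir195a (-1.28), Mir26b (-1.55) and Mir153 (-1.55), the closest 0.06 away. Mir26b and Mir153 stood near both. Mir128-1, known for high levels in neurons, had 4518 and 16906 CPM. Mir26b, whose family is also known for repressing Ezh2, had 4999 and 14634 CPM. Likeness over 2 libraries is a single number per gene and says nothing more.

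Other miRNA genes have been reported to act on the same targets as miR-101. Of 10 listed genes reported in human or mouse cells to lower Ezh2, 7 were detected, and their median log2 ratio of replicate 1 over replicate 2 was -0.38, beside -0.06 over all detected genes. Mir26b and Mir26a-1, 2 of the 7, were 2-fold or more lower in replicate 1, beside 6.23% of all detected genes. None of the 7 was 2-fold or more higher, beside 4.49% of all detected genes. Mir26a-1 had 13 counts (5.60 CPM) in replicate 1 and 141 (41.3 CPM) in replicate 2. Mir138-1, a regulator of dendritic spines in rat neurons, had 4809 CPM in replicate 1 against 2633 CPM in replicate 2. Mir138-2 was at 2687 and 2104 CPM. The Mir26a, Mir138 and Mir124a genes of this list are copies, and reads of a mature sequence that copies share are in no gene's count. The counts of these copies, and the median over the list, leave out such reads. The listed genes reported to act with miR-101 on the ataxin gene Atxn1 were Mir130a, at 1604 and 2032 CPM, and 3 Mir19 genes with at most 3 counts each. The same limit holds for the Mir19b copies.

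How far reads of the pair can be placed depends on few bases. The Mir101a and Mir101b hairpins share a run of 20 nt, but part of it lies outside the mature arms. The mature miR-101a-3p shares 15 nt with the Mir101b hairpin, and miR-101b-3p shares 16 nt with the Mir101a hairpin. Read from the first base, miR-101a-3p matched 1 listed miRNA gene from a length of 16 nt, and miR-101b-3p from 17 nt. A miR-101a-3p that lacks its first base matched both Mir101a and Mir101c up to 19 nt, and Mir101a alone at 20 nt. At full length, miR-101a-3p differed from the Mir101b hairpin by 1 base and from Mir101c by 2, and miR-101b-3p differed from the Mir101a hairpin by 1 base. The 5′ arms differed by 5 bases from the nearest other hairpin. The matches are exact, over annotated transcripts and without the host genes, and were not searched in the genome. The multimapping share differed between the libraries, at 42.6% in replicate 1 and 46.0% in replicate 2. The lengths and mismatches of the deposited reads were not used here, and the part of read placement in the levels of the pair, in their ratio and in their difference between the replicates was not tested.

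**Figure D4:**
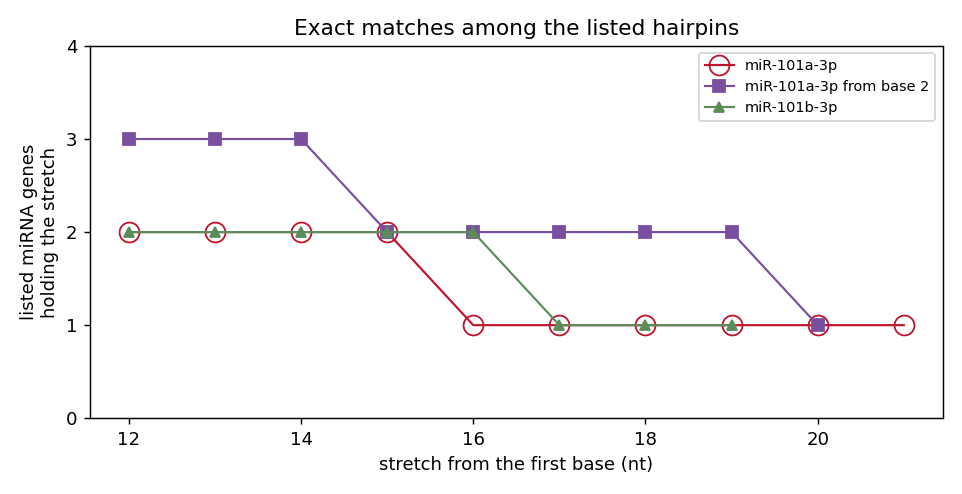
Number of the 2202 listed miRNA genes whose hairpin holds the stretch of a mature sequence, against the length of the stretch in nt from its first base, for miR-101a-3p (open red circles), miR-101a-3p from base 2 (purple squares) and miR-101b-3p (green triangles). The number reaches 1 at 16 nt, 20 nt and 17 nt in that order.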

How the data were processed

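The authors deposited whole-number counts of reads per miRNA gene, without normalization, in 1 table per library with 3 strand columns. The assembly was mm10, per the labels, and the annotation M21, per the descriptions deposited with the samples. No aligner or counting program is stated in the sources used here. All 2202 identifiers matched GENCODE M21, and the same-strand counts were used. Totals leave out 4 rows without a gene. Unmapped reads were 16.2% of replicate 1 and 15.1% of replicate 2, multimapping reads 42.6% and 46.0%, reads outside features 5.16% and 4.70%, and ambiguous reads 0% in both.

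CPM, log2 ratios and Wilson or exact 95% intervals were computed with Python 3.11.15 and scipy 1.17.1. The log2 ratio and the number of genes past 2-fold were checked on simulated counts, and the intervals were not. No test was made. Other scalings came from edgeR 4.0.16 and DESeq2 1.42.0, and folds from RNAfold 2.7.2. Sequences are those of RefSeq, GRCm38.p6, and GENCODE M21. Genes named are the seed relatives, 3 neighbours in level on each side, the 5 closest in ratio, listed genes and letter pairs. The members and lists were chosen with earlier results of these data known.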

Additional observations from a re-analysis of the deposited data

How the results depend on the processing

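No paired analysis was possible because there was 1 group. None of the 14 alternative values of a log2 ratio changed sign. Some had little room to, since the unstranded counts of both genes equalled the same-strand ones. Leaving out 1 replicate also only returned the ratio of the other. The level depends on the total it is scaled to. With all rows in the total, the mean was 106 CPM for Mir101a and 274 CPM for Mir101b, and without the 5 most abundant genes in the total it was 531 and 1374 CPM, against 308 and 792 CPM. With no filter on low values and 0.5 added to each count, 272 of 715 genes (38.0%) lay past 2-fold, against 43 of 401. With 0.5 added and the filter kept, an alternative chosen after seeing the data, 42 of 401 did. Leaving out 1 replicate gave a level of 109 to 506 CPM for Mir101a and 437 to 1146 CPM for Mir101b, and a log2 ratio of Mir101a over Mir101b of -2.004 to -1.18. Over the other scalings and the unstranded column, the log2 ratio of replicate 1 over replicate 2 stayed between -2.22 and -2.12 for Mir101a and between -1.39 and -1.30 for Mir101b.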

Other observations

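The Mir101a hairpin had a GC content of 49.4% and the Mir101b hairpin 47.4%, against a median of 52.0% over the 401 detected genes, of which 161 and 135 had a lower GC content. The mature miR-101a-3p had 33.3% and miR-101b-3p 42.1%. Among the genes averaging at least 100 CPM, the 11 that were 2-fold or more lower in replicate 1 had a median hairpin GC content of 50.0% (42.0 to 58.8), and the 6 that were 2-fold or more higher had 48.6% (40.3 to 55.7). Across the 401 detected genes, which share the same libraries, Spearman's rho between hairpin GC content and the log2 ratio of replicate 1 over replicate 2 was 0.03.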
